A study of Rattus norvegicus with 20 samples.

Results

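Subcutaneous fat of rosiglitazone-treated rats was compared with that of lean control rats on 10 arrays, 5 per group, out of the 20 arrays of the series. The arrays were chosen by their labels alone, and every one of the 36685 transcript clusters on them was tested. All rats were male Zucker diabetic fatty (ZDF) animals, entered under the strain name Zucker. The lean controls ate standard chow, and their labels name no drug. For the treated rats the labels give the drug's name only, without its dose, its duration or whether the animals were obese. The difference between the groups therefore cannot be told apart into an effect of the drug and an effect of genotype or diet. The remaining arrays came from obese rats kept on a stock diet for 6 weeks and from resveratrol rats, 5 of each. Arrays of a group are biological replicates according to the labels, and each is named here by its group and replicate number.

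Rosiglitazone is a thiazolidinedione that binds and activates PPARG, the nuclear receptor that drives fat cell differentiation. With its partner, a retinoid X receptor, PPARG switches on genes for fatty acid uptake, binding and storage, and thiazolidinediones are known to raise mitochondrial content in rodent fat. White fat stores triglyceride, whereas brown and beige fat burn fatty acids in mitochondria that carry the uncoupling protein UCP1.

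Levels are given as log2 RMA values, on which a difference of 1 is a 2-fold difference. A gene was called changed at a Benjamini-Hochberg adjusted p under 0.05 in limma, adjusted over all clusters. Rosiglitazone and lean fat differed in 1974 of 36685 clusters (5.38%), of which 1349 (3.68%) were higher and 625 (1.7%) were lower with rosiglitazone. The arrays of the 2 groups did not overlap in 2785 clusters (7.59%), with rosiglitazone above lean in 4.67% and below it in 2.92% of all clusters. Of the clusters called higher 523 rose at least 2-fold, and 256 of the lower ones fell at least 2-fold. Median centring of the arrays changed the split to 1681 higher against 407 lower, and it moved the median difference of all clusters from -0.01 to 0.09. The count was 1218 without rosiglitazone 5 and 2713 without lean 2, and the count of clusters changed at least 2-fold was 1183 without lean 2. Among 14557 genes with a single symbol, 1135 (7.8%) were called, 896 higher (6.16%) and 239 lower (1.64%), and the median log2 difference of all these genes was 0.02. Over these genes 9.7% had groups without overlap, 7.27% higher and 2.43% lower. The shares called higher (6.16%) and lower (1.64%) are the comparison for each list count below.

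Genes of other tissues were high on some arrays. Lalba, the milk protein alpha-lactalbumin, measured 1.51, 0.93, 9.17, 10.44 and 9.90 on lean arrays 1 to 5 and 4.66, 1.07, 6.04, 1.02 and 5.34 on rosiglitazone arrays 1 to 5. Lean 3, 4 and 5 were thus far above lean 1 and 2, rosiglitazone 1, 3 and 5 lay between them, and the groups overlapped. Milk protein transcripts are not usual in fat of male rats, and their source was not tested. Over the 11 measured mammary and sweat gland markers, 0 were called (5 at an unadjusted p under 0.05). Their mean level ran from 1.83 to 6.84 on lean arrays and from 1.87 to 3.80 on rosiglitazone arrays, and their median log2 difference was -1.67. The casein genes Csn2 and Csn3 had log2 differences of -3.26 and -2.21 (adjusted p = 0.125 and 0.604 in limma). Rosiglitazone 3 also had the highest mean of the 10 skeletal muscle markers, 4.92 against 2.14 to 2.40 on the other rosiglitazone arrays, and of the 10 skin markers, 4.44. Lean 3 had a muscle mean of 3.67. Leaving out the 8 arrays with a Lalba value above 3 kept 2 lean and 2 rosiglitazone arrays and gave 208 called clusters. Of 101 called genes named here 41 were called in that smaller fit, 60 were not, and 0 changed sign. The named genes that lost their call there are given with their group below.

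**Figure D1:**
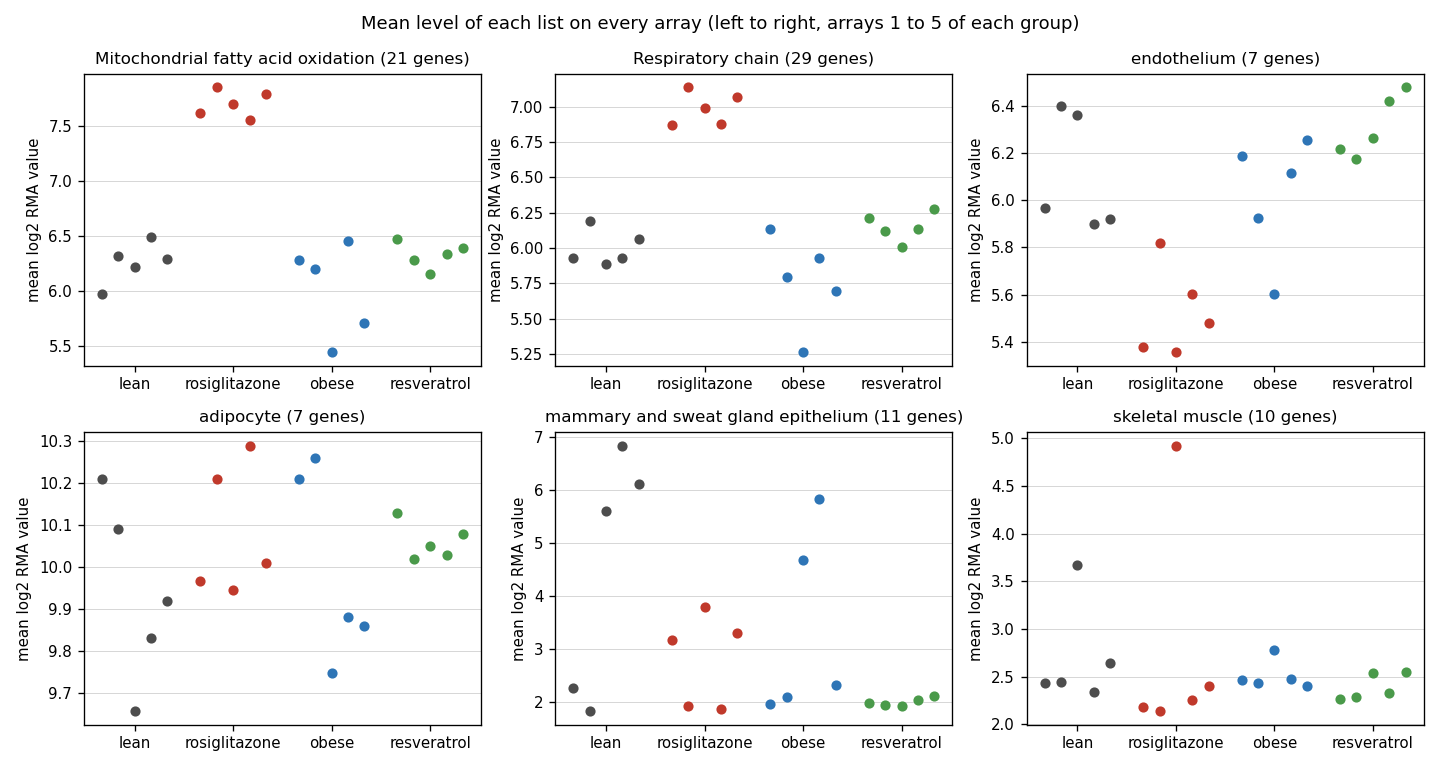
The mean log2 RMA value of 6 gene lists is plotted for each of the 20 arrays, 1 point per array. The oxidation and respiratory chain lists are higher on all 5 rosiglitazone arrays than on all lean arrays, whereas mammary markers are high on lean 3, 4 and 5 and on 2 obese arrays.

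The largest increases and decreases were chosen among called genes without overlap and above the median level. Their lack of overlap was a condition of the choice and is not a result. The largest increase chosen was that of Fabp3 (cluster 17802585), the fatty acid binding protein of heart and oxidative muscle. It measured 3.84, 5.04, 4.08, 4.80 and 4.01 on the lean arrays and 8.85, 8.61, 8.44, 9.05 and 8.69 on the rosiglitazone arrays. The lowest rosiglitazone array was more than 3 units above the highest lean array. The means of 8.73 ± 0.23 (SD, n = 5) and 4.36 ± 0.53 differed 20.7-fold (log2 4.37, SE 0.30, limma adjusted p = 4.68e-08). Fabp3 measured 4.51 ± 0.69 in obese and 5.43 ± 0.48 in resveratrol fat (SD, n = 5 each).

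Elovl6 (cluster 17742626), which elongates palmitate and palmitoleate, followed. It measured 3.66, 5.90, 3.85, 3.94 and 4.31 on the lean arrays and 8.89, 8.36, 8.55, 8.02 and 8.07 on the rosiglitazone arrays, a 16.5-fold difference (log2 4.04, SE 0.39, limma adjusted p = 2.99e-06). Lean 2 was the highest lean array, and the groups did not overlap. Without the arrays high in Lalba the difference was 3.41 and missed the threshold (adjusted p = 0.0576).

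Cpt1b (cluster 17840115), the muscle isoform of the enzyme that admits fatty acids to mitochondria, measured 5.09, 5.23, 3.59, 4.06 and 3.76 in lean and 8.13, 8.35, 7.83, 7.92 and 8.01 in rosiglitazone fat. The groups were clearly apart, and the rosiglitazone arrays spanned a narrower range than the lean ones. The difference was 13.1-fold (log2 3.71, SE 0.26, limma adjusted p = 5.91e-08), and 2.98 on the log2 scale without the arrays high in Lalba (adjusted p = 0.000584). Cyp4b1, a cytochrome P450 and a known PPARG target, rose 10.6-fold, from 5.66 ± 0.69 to 9.06 ± 0.11 (SD, n = 5).

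Several of the other large increases were genes of matrix and connective tissue. Cilp, the cartilage intermediate layer protein, measured 3.52, 3.40, 3.68, 3.21 and 2.97 in lean and 7.33, 6.96, 7.97, 5.59 and 8.01 in rosiglitazone fat, where rosiglitazone 4 was the lowest of its group. It rose 14.1-fold (log2 3.81, SE 0.36, limma adjusted p = 2.26e-06). Prg4, which encodes the lubricant lubricin, rose 11.5-fold, and the proteoglycan gene Aspn rose 11-fold, from 4.31 ± 1.35 to 7.77 ± 0.98 (SD, n = 5). P4ha3, a collagen prolyl hydroxylase subunit, measured 2.91, 2.82, 2.76, 2.49 and 2.73 in lean and 5.88, 5.40, 6.78, 5.94 and 6.27 in rosiglitazone fat, a 9.93-fold rise. Col8a1, a chain of type VIII collagen, rose 8.68-fold. Without the arrays high in Lalba, Aspn (log2 2.21, adjusted p = 0.295) and Col8a1 (2.41, adjusted p = 0.0812) were not called, whereas Cilp (2.81), Prg4 and P4ha3 were.

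Trim63, a ubiquitin ligase best known from wasting muscle, measured 1.56, 2.11, 1.95, 2.17 and 2.02 in lean and 4.91, 5.90, 6.17, 4.55 and 4.70 in rosiglitazone fat. All rosiglitazone arrays were higher, which the choice of this gene required (log2 difference 3.29, SE 0.25, limma adjusted p = 1.92e-07). Rosiglitazone 3, the array high in muscle markers, had the highest Trim63 value, and the lowest was 4.55. Vat1l was higher by 3.47 on the log2 scale (5.14 ± 0.29 against 1.67 ± 0.13) and the dense-core vesicle protein gene Ptprn by 3.07 (5.54 ± 0.31 against 2.47 ± 0.18; SD, n = 5). The lean means of Trim63, Vat1l and Ptprn lay below the median level of all clusters, 2.55, so these genes met the level criterion through rosiglitazone fat alone, and no fold is given against such low values. The aldo-keto reductase gene Akr1c15 rose 7.92-fold, from 5.10 ± 0.28 to 8.09 ± 0.67 (SD, n = 5).

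Itgad, an integrin chain of leukocytes, and Dsp, the desmosomal protein desmoplakin, were also among the 15 largest increases (log2 3.32 and 3.14, limma adjusted p = 8.51e-05 and 1.28e-06). Their values on rosiglitazone arrays 1 to 5 were 6.60, 4.48, 6.92, 3.71 and 5.76 for Itgad and 6.11, 4.86, 6.63, 4.72 and 5.72 for Dsp. Rosiglitazone 1, 3 and 5, the arrays with Lalba above 3, were the higher ones for both genes. The groups did not overlap, which the choice of these genes required. The differences were 1.64 and 2.37 without the arrays high in Lalba (limma adjusted p = 0.0497 and 0.00963), and the part of other tissue in them was not tested. Their lean means, 2.17 and 2.47, were likewise below the median level of all clusters. Ccl21, a chemokine of lymphoid tissue, showed the same order, 6.15, 4.0, 6.88, 2.88 and 5.88 with rosiglitazone against 2.32 to 3.10 in lean (log2 2.37, SE 0.50, limma adjusted p = 0.00624). Its groups overlapped, and without the arrays high in Lalba the difference was 0.92 (adjusted p = 0.325). Ccl21 is 1 of 5 measured markers of lymph node stroma, of which 1 rose and 1 fell (median log2 -0.24). Over all genes 6.16% rose and 1.64% fell.

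Among all genes called, 52 rose and 6 fell at least 4-fold. The 15 largest decreases among genes without overlap and above the median level in lean fat lay between -1.97 and -1.45 on the log2 scale. The 6 genes that fell at least 4-fold are therefore not among these 15. In whole tissue, fewer cells of a type and less RNA per cell cannot be told apart, for these genes or for any below. C1qtnf9 (cluster 17699417), which encodes a secreted C1q-like adipokine, measured 5.58, 5.66, 3.99, 4.80 and 5.08 in lean and 2.87, 3.28, 3.19, 3.32 and 2.61 in rosiglitazone fat. The groups were separate, and the gene fell 3.91-fold (log2 -1.97, SE 0.24, limma adjusted p = 4e-05). It measured 5.54 ± 0.21 in obese and 6.01 ± 0.22 in resveratrol fat (SD, n = 5), from which rosiglitazone fat also differed (log2 -2.48 and -2.95, limma adjusted p = 1.53e-06 and 5.24e-07).

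Car4, a membrane-bound carbonic anhydrase of capillary walls, measured 5.75, 5.24, 4.75, 4.76 and 4.05 in lean and 3.58, 2.88, 2.68, 3.25 and 2.53 in rosiglitazone fat, a 3.80-fold fall with no overlap. Bcam, a laminin receptor, fell 3.03-fold, from 6.64 ± 0.24 to 5.05 ± 0.27, and Jam2, an adhesion molecule of endothelial junctions, fell 2.74-fold, from 7.91 ± 0.27 to 6.45 ± 0.30 (SD, n = 5). The carriers of insulin-like growth factors Igfbp4 and Igfbp3 fell 3.55-fold and 2.73-fold, the secreted phospholipase gene Pla2g2a 3.47-fold and the secreted protein gene Crispld2 3.68-fold. Igfbp3 lost its call without lean 3 (log2 -1.25, limma adjusted p = 0.0547). Bmp3, a secreted BMP family member, and Bcar3, an adaptor protein, fell 3.01-fold and 2.93-fold.

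For Hcar2, Acvr1c and Sytl5, unlike C1qtnf9, the obese and resveratrol means also lay below the lean mean. Hcar2, the nicotinic acid receptor that restrains lipolysis, measured 6.10, 4.24, 5.74, 5.11 and 4.78 in lean and 3.77, 3.07, 2.81, 4.18 and 3.77 in rosiglitazone fat, and lean 2 lay just above rosiglitazone 4. It fell 3.19-fold (log2 -1.68, SE 0.36, limma adjusted p = 0.00774), and it measured 3.85 ± 0.62 in obese and 3.89 ± 0.52 in resveratrol fat (SD, n = 5). Neither of those groups differed from lean past the threshold (log2 -1.34, adjusted p = 0.162, and -1.30, adjusted p = 0.116).

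Acvr1c, the activin receptor ALK7 of fat cells, measured 7.28 ± 0.69 in lean, 5.80 ± 0.26 with rosiglitazone, 5.53 ± 0.39 in obese and 5.62 ± 0.36 with resveratrol (SD, n = 5). It was lower than in lean fat in all of them (limma adjusted p = 0.00189, 0.0124 and 0.0391). Sytl5, an effector of Rab27 in vesicle traffic, was likewise lower than in lean fat with rosiglitazone (log2 -1.63, adjusted p = 0.000333), in obese (-1.30, adjusted p = 0.0423) and with resveratrol (-1.39, adjusted p = 0.0391). Hcar1, the lactate receptor, fell 2.81-fold with rosiglitazone. The immediate early gene Egr1 fell 3.07-fold. Of the 15 decreases 5 were called without the arrays high in Lalba (C1qtnf9, Car4, Bcam, Bcar3, Jam2). The other 10 were not (limma adjusted p from 0.0831 to 0.569). Among them Crispld2 differed by -1.15, Egr1 by -0.91 and Igfbp3 by -0.83, and Pla2g2a by -1.41 and Acvr1c by -1.29. Sytl5 (-1.61) and Hcar2 (-1.54) stayed near their differences over all arrays. Igfbp4 (-1.95), Bmp3 (-1.62) and Hcar1 (-1.575) differed slightly more than over all arrays.

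**Figure D2:**
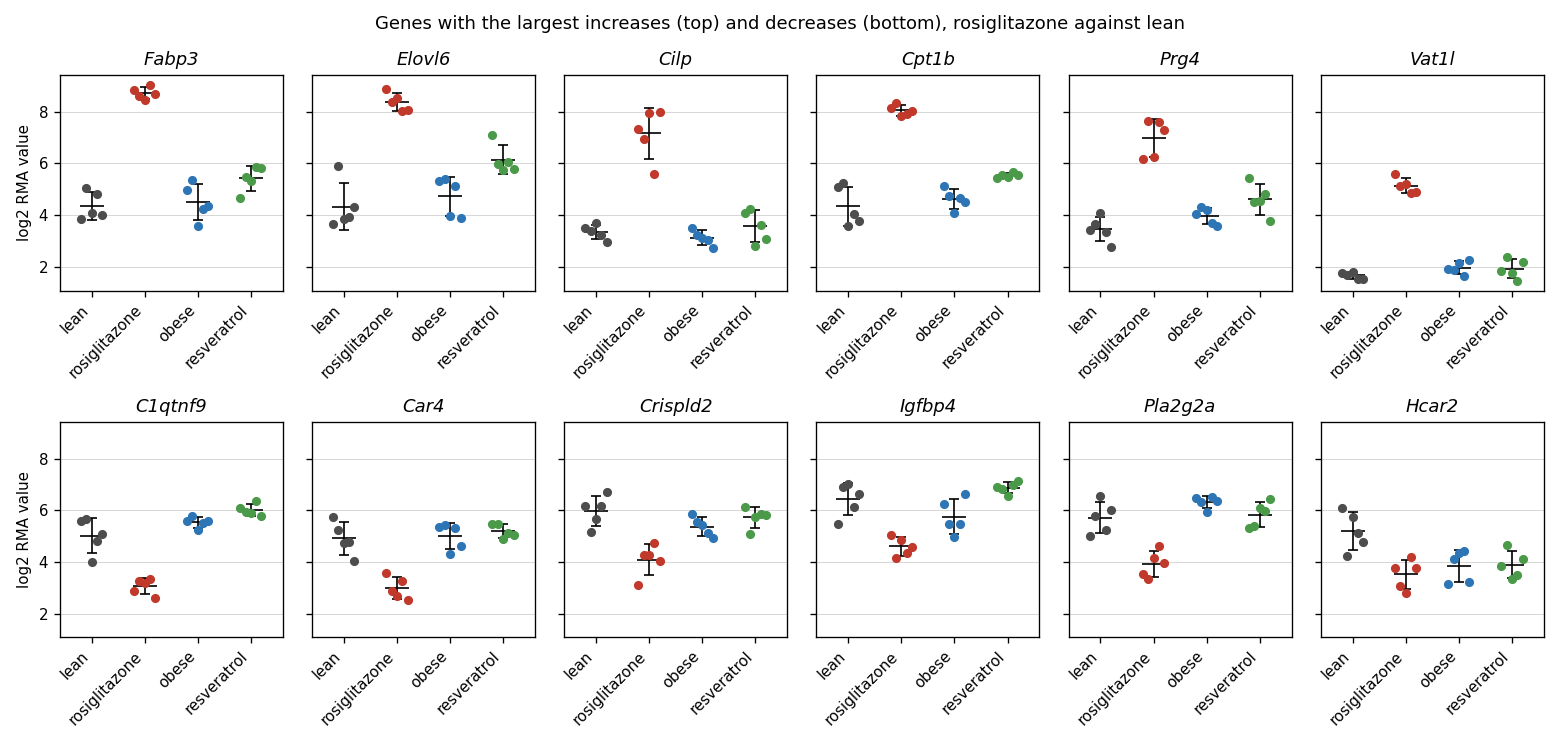
Log2 RMA values of 6 genes with large increases and 6 with large decreases are plotted, 1 point per array with the group mean ± SD. They have the largest differences among called genes without overlap and above the median level. That rosiglitazone and lean points do not overlap in the 12 panels was thus a condition of the choice. Hcar2 is also low in obese and resveratrol fat.

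Genes of mitochondrial fatty acid oxidation were higher with rosiglitazone almost throughout the pathway. Of 21 measured genes 19 rose and 0 fell, and for those 19 the arrays of the groups did not overlap (7.27% of all genes were higher without overlap). The median log2 difference of the 21 was 1.51, against 0.02 for all genes. The mean level of the list on lean arrays 1 to 5 was 5.97, 6.32, 6.22, 6.49 and 6.29, and on rosiglitazone arrays 1 to 5 it was 7.62, 7.86, 7.70, 7.56 and 7.80. No lean array came within 1 unit of a rosiglitazone array. The obese arrays lay between 5.44 and 6.46 and the resveratrol arrays between 6.15 and 6.48.

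The rise covered entry, the dehydrogenases, the later steps and electron transfer. Slc25a20, the carrier that brings acylcarnitines into the matrix, rose 3.41-fold, from 4.70 ± 0.37 to 6.47 ± 0.12. Acadl, the long-chain acyl-CoA dehydrogenase, measured 7.22, 7.50, 7.67, 7.84 and 7.56 in lean and 9.36, 9.82, 9.52, 8.86 and 9.66 in rosiglitazone fat, a 3.70-fold rise (log2 1.89, SE 0.22, limma adjusted p = 2.92e-05). Hadhb, the thiolase subunit of the trifunctional protein, measured 6.87, 7.50, 7.14, 7.31 and 6.97 in lean and 8.94, 9.17, 9.07, 8.89 and 9.16 in rosiglitazone fat. The groups were apart by more than 1 unit in both genes, and Hadhb rose 3.69-fold (log2 1.89, SE 0.20, limma adjusted p = 7.41e-06).

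Etfdh, which passes electrons from these dehydrogenases to the respiratory chain, rose 3.33-fold and the mitochondrial acyl-CoA thioesterase gene Acot2 3.49-fold. Pdk4, the kinase that shuts off pyruvate dehydrogenase, rose by 1.72 (SE 0.42, limma adjusted p = 0.019), and it lost its call without rosiglitazone 5 (log2 1.65, adjusted p = 0.0531) and without the arrays high in Lalba (2.31, adjusted p = 0.247). Cpt1a, the liver isoform of the entry enzyme, and the isomerase gene Eci1 were not called (log2 -0.14 and -0.18, adjusted p = 0.831 and 0.818), so of the entry isoforms measured Cpt1b was called and Cpt1a was not. Cpt1a measured 4.43, 5.11, 5.61, 6.15 and 5.55 in lean and 5.41, 4.90, 5.16, 5.50 and 5.17 in rosiglitazone fat, and the groups overlapped. Without the arrays high in Lalba 13 of the 21 genes were called and the median difference was 1.58.

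The citric acid cycle and pyruvate oxidation rose alongside. Of 17 measured genes 16 rose and 0 fell, with a median log2 difference of 1.38, and 14 of them were called without the arrays high in Lalba (median 1.48). Idh3a, the catalytic subunit of the NAD-dependent isocitrate dehydrogenase, measured 5.82, 6.72, 6.25, 5.78 and 5.99 in lean and 8.47, 8.71, 8.33, 8.49 and 8.34 in rosiglitazone fat. The groups were well apart, and the rise was 5.12-fold (log2 2.36, SE 0.22, limma adjusted p = 1.82e-06). Pdhb and Dlat, subunits of pyruvate dehydrogenase, rose 3.63-fold and 3.53-fold, and Idh3b, another isocitrate dehydrogenase subunit, rose 3.40-fold. The exception was Idh2, the NADP-dependent enzyme, with a log2 difference of -0.33 (adjusted p = 0.307), although its rosiglitazone arrays (5.58 to 6.03) all lay below its lean arrays (6.05 to 6.42).

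In the respiratory chain 24 of 29 measured genes rose and 0 fell, with a median log2 difference of 1.12. Complexes I, II, III, IV and the ATP synthase were all represented. Ndufv1 of complex I measured 6.03, 6.04, 5.66, 5.72 and 6.08 in lean and 7.44, 7.90, 7.50, 7.35 and 7.73 in rosiglitazone fat, with no overlap, and rose 3.20-fold (log2 1.68, SE 0.18, limma adjusted p = 7.46e-06). Uqcrc1, Cyc1 and Uqcrc2 of complex III rose 3.02-fold, 2.74-fold and 2.60-fold, and Sdha, the flavoprotein of complex II, rose 2.23-fold. Sdha and its partner Sdhb belong to the citric acid cycle list as well. Atp5f1c of the ATP synthase, at -0.52 (adjusted p = 0.351), was the lowest of the 5 genes that were not called. Of the 29 genes 9 were called without the arrays high in Lalba and the median difference was 1.05, and Cyc1 (1.51, limma adjusted p = 0.0593) was not among the 9.

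**Figure D3:**
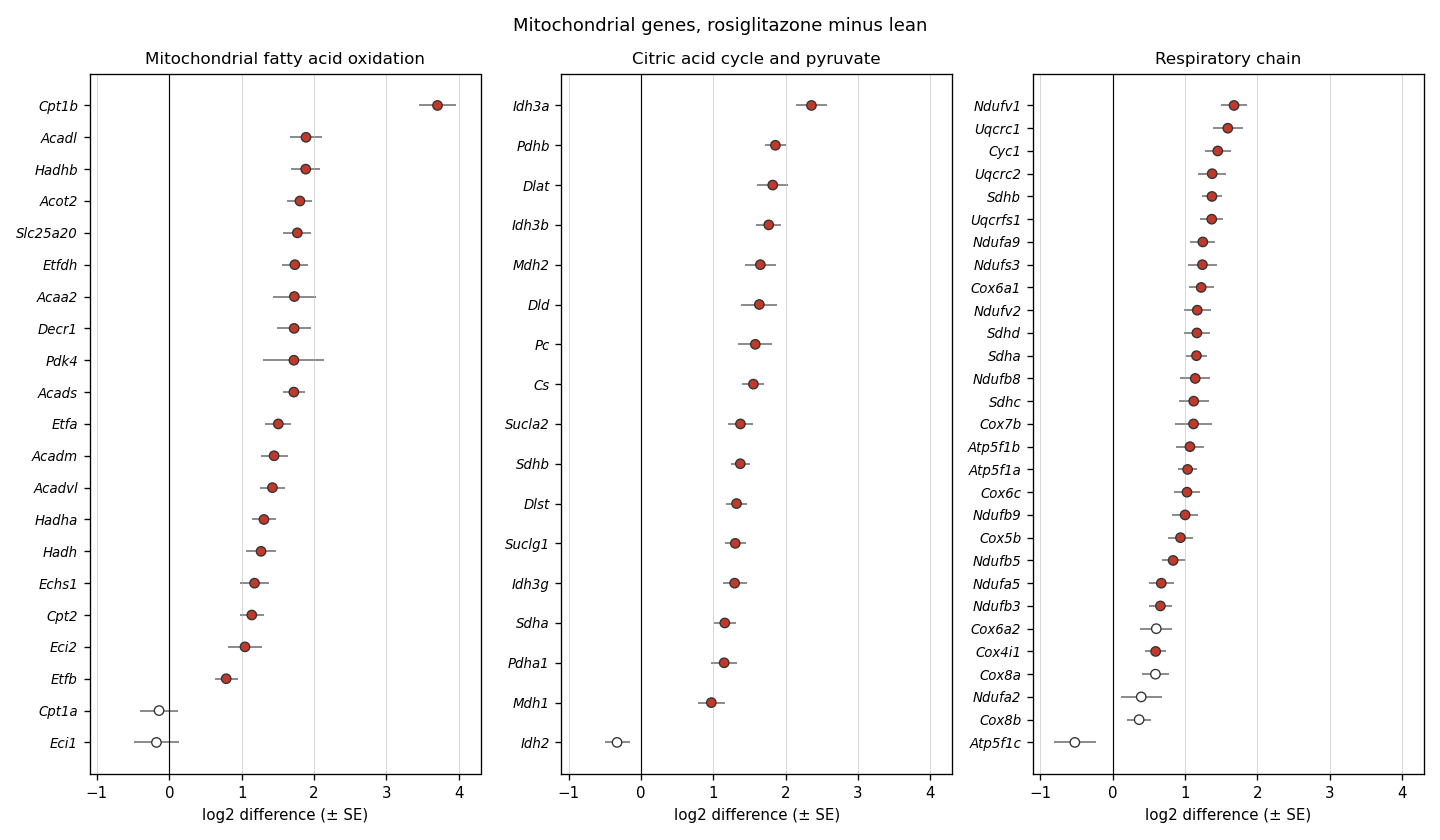
Log2 differences (rosiglitazone minus lean) with their SE are plotted for the measured genes of 3 mitochondrial lists, filled where the gene was called. Filled points lie to the right of 0 in all panels, and Cpt1a, Eci1, Idh2 and Atp5f1c lie to its left and are open.

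Ppargc1a, the coactivator that drives mitochondrial biogenesis, rose by 0.80 on the log2 scale (SE 0.15, limma adjusted p = 0.00329). It measured 2.26, 1.91, 2.30, 2.24 and 2.33 in lean and 3.42, 2.97, 2.64, 3.27 and 2.75 in rosiglitazone fat. Its lean arrays lay below the median level of all clusters, 2.55, so no fold is given. Ppara, the PPAR of oxidative tissues, rose 2.85-fold, from 3.40 ± 0.28 to 4.91 ± 0.70 (SD, n = 5). Nrip1, a corepressor of oxidative genes in mouse fat, fell by 0.74 on the log2 scale (SE 0.12, limma adjusted p = 0.000784). None of Ppargc1a, Ppara and Nrip1 was called without the arrays high in Lalba (log2 1.04, 1.71 and -0.67, limma adjusted p = 0.0692, 0.103 and 0.211).

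Promoters of the called mitochondrial genes are shown because the motif of NRF1, the nuclear respiratory factor that activates respiratory chain genes, was found in some of them. The letters GCGCA and GCGC with any base between them were searched on both strands in RefSeq promoters (GRCr8, 250 bases before to 50 after the start). They stood in 7 of 47 called genes of the 3 lists with a promoter (14.9%), against 791 of 11723 measured genes (6.75%) and 1324 of all 27457 RefSeq genes (4.82%). Over the 3 lists, called or not, they stood in 8 of 55 genes (14.5%). The called genes are 47 of these 55, so the shares could hardly differ. Among all genes called higher the motif stood in 85 of 744 (11.4%), among those called lower in 5 of 193 (2.59%) and among those not called in 701 of 10786 (6.5%). These shares are a description, and no binding was measured. A window of 60 bases around the first match is given for each of the 7 genes, 5′ to 3′ on the gene's strand, with the matched letters in capitals. They come from chr2:167060892-167060951 (Etfdh, minus strand), chr6:53652320-53652379 (Dld, minus), chr8:118468134-118468193 (Uqcrc1, plus), chr15:55161830-55161889 (Sucla2, plus), chr1:30764439-30764498 (Sdha, plus), chr1:102988416-102988475 (Etfb, plus) and chr4:53971233-53971292 (Ndufa5, minus).
Etfdh: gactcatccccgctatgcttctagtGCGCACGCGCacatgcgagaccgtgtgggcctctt
Dld: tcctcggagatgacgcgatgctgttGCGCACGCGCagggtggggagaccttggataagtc
Uqcrc1: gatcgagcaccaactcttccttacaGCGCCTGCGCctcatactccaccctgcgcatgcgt
Sucla2: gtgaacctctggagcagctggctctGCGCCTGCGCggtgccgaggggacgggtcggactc
Sdha: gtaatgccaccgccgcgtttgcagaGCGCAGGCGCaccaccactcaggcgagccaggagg
Etfb: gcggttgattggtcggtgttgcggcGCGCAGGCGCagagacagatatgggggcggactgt
Ndufa5: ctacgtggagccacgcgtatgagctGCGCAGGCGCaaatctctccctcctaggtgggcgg
The log2 differences of these genes ran from 1.74 for Etfdh and 1.64 for Dld to 0.79 for Etfb and 0.67 for Ndufa5. Ndufa5 lost its call without lean 1, lean 4, rosiglitazone 2, rosiglitazone 4 or rosiglitazone 5 (0.62 to 0.67, limma adjusted p from 0.0514 to 0.0643), and neither it nor Etfb was called without the arrays high in Lalba (adjusted p = 0.149 and 0.131). The motif of PPARG and its partner, AGGTCA repeated with any base between the copies, stood in 0 of the 744 promoters of genes called higher and in 4 of 11723 measured genes. The 0 says only that the repeat is not in these windows. A single AGGTCA stood in 13 of the 47 called genes of the 3 lists (27.7%) and in 15 of 55 called or not (27.3%), again mostly the same genes. It stood in 120 of 744 genes called higher (16.1%), 31 of 193 called lower (16.1%) and 1644 of 11723 measured genes (14%). These shares are likewise a description.

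Oxidation outside the mitochondria and breakdown of amino acids gave fewer calls. Of 11 peroxisomal genes 4 rose and 0 fell (median log2 0.57), among them Decr2, a reductase for unsaturated fatty acids, which rose 3.41-fold from 3.54 ± 0.25 to 5.31 ± 0.21 (SD, n = 5), and Crot, which exports shortened fatty acids as carnitine esters, with a 3.32-fold rise. Hsd17b4, the peroxisomal bifunctional enzyme, and Ech1, an isomerase, rose 2.18-fold and 1.90-fold. Of 15 genes of branched-chain amino acid breakdown 7 rose and 0 fell (median 0.74). Acadsb, which oxidises the isoleucine product, measured 7.09, 7.26, 6.68, 6.56 and 6.59 in lean and 8.33, 8.86, 8.35, 8.38 and 8.38 in rosiglitazone fat, and it rose 3.08-fold with no overlap. Dbt, a subunit of the branched-chain ketoacid dehydrogenase, and Auh, a hydratase of leucine breakdown, rose 2.52-fold and 2.29-fold. With the arrays high in Lalba left out, 3 of the 11 peroxisomal genes were called, Ech1 not among them, and 2 of the 15 of branched-chain amino acid breakdown (median 0.88), with Dbt (1.42, limma adjusted p = 0.0814) and Auh (1.06, adjusted p = 0.149) not called.

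Synthesis of fatty acids rose in part. Of 12 measured genes 5 rose and 0 fell (median log2 0.61), and 3 were called without lean 3. Beside Elovl6 these were Me1, the malic enzyme that supplies NADPH, with a 5.14-fold rise from 7.49 ± 0.82 to 9.85 ± 0.14 (SD, n = 5), the citrate carrier gene Slc25a1 with a 2.95-fold rise, the desaturase gene Scd and Acly, which splits citrate into acetyl-CoA. Acly measured 6.01, 6.45, 6.90, 8.81 and 8.31 in lean and 9.83, 8.68, 9.29, 8.77 and 8.19 in rosiglitazone fat, and lean 4 and 5, both high in Lalba, reached the level of the rosiglitazone arrays. Its difference of 1.66 (limma adjusted p = 0.0479) was not called without lean 1, lean 2, lean 3 or any one of the 5 rosiglitazone arrays (1.33 to 1.85, adjusted p from 0.0501 to 0.138). It was called without the arrays high in Lalba (2.5, limma adjusted p = 0.0172) and with the mammary marker mean as a covariate (2.37, adjusted p = 0.000521). Scd lost its call without lean 3 (log2 0.97), lean 4 (0.89) or the arrays high in Lalba (0.53, adjusted p = 0.503). Fads1, a desaturase of polyunsaturated fatty acids, was not called (log2 -2.21, adjusted p = 0.0624). It measured 6.17, 6.82, 8.53, 10.29 and 9.86 in lean, so that lean 3, 4 and 5 were high, and 5.28 to 6.84 with rosiglitazone. Its difference was -0.95 (adjusted p = 0.158) without the arrays high in Lalba and -0.92 (adjusted p = 0.0254) with the mammary covariate.

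In cholesterol synthesis 5 of 10 measured genes rose and 0 fell (median log2 0.90). Dhcr7 and Sc5d of the last steps rose 3.13-fold and 2.59-fold, Fdft1, the squalene synthase, 2.29-fold, and Insig1, the sterol-sensing regulator, 3.12-fold. Without the arrays high in Lalba 0 of the 10 were called and the median was 0.67 (for Dhcr7, Insig1 and Fdft1, log2 1.49, 1.05 and 0.63, limma adjusted p = 0.222, 0.195 and 0.416).

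Of 11 genes of glucose uptake and glycolysis 5 rose and 0 fell (median log2 0.73). Slc2a4, the insulin-regulated glucose transporter GLUT4, measured 4.18, 3.96, 3.20, 4.17 and 3.79 in lean and 5.22, 5.67, 5.38, 4.99 and 5.31 in rosiglitazone fat, a 2.74-fold rise with no overlap (log2 1.45, SE 0.21, limma adjusted p = 0.000239). Pgk1, Ldhb and Pfkm of glycolysis rose 2.31-fold, 2.02-fold and 1.77-fold. In insulin signalling 1 of 16 genes rose, near the share of all genes (6.16%), and 1 fell (1.64% of all genes). Gys1, glycogen synthase, rose from 4.29 ± 0.05 to 5.44 ± 0.16 (SD, n = 5). Irs1, the insulin receptor substrate, measured 5.75, 4.78, 5.53, 4.78 and 5.38 in lean and 4.63, 3.77, 3.97, 3.71 and 4.14 in rosiglitazone fat, a 2.29-fold fall with no overlap (log2 -1.20, SE 0.27, limma adjusted p = 0.0114). None of these 6 named genes was called without the arrays high in Lalba, with differences of 1.26 for Slc2a4 (adjusted p = 0.166), 1.26 for Gys1 (adjusted p = 0.259) and -1.53 for Irs1 (adjusted p = 0.0689).

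Known PPARG targets of fat moved in both directions. Of 23 measured targets 9 rose and 3 fell, and the median log2 difference was 0.13. With single arrays left out, 6 to 9 rose and 3 fell. Slc25a20 and Pdk4 belong to the fatty acid oxidation list as well. The rising genes included Fabp3 and Cyp4b1, Cidea, a lipid droplet protein with a 4.94-fold rise from 7.96 ± 0.75 to 10.27 ± 0.14, Slc27a1, a fatty acid transporter with a 2.5-fold rise, and Aqp7, the glycerol channel of fat cells, with a 1.87-fold rise (SD, n = 5). Fabp4, the fatty acid binding protein of adipocytes, measured 11.42, 11.30, 11.29, 11.06 and 11.05 in lean and 11.19, 11.28, 11.25, 11.20 and 11.22 in rosiglitazone fat (log2 0.00, SE 0.10, adjusted p = 0.997). Its groups overlapped fully. Adipoq and the fatty acid receptor gene Cd36 were likewise high in both groups and not called (log2 0.10 and 0.13, adjusted p = 0.623 and 0.576).

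The targets that fell were Hcar2, Hcar1 and Pck1. Pck1, the enzyme that makes glycerol phosphate from pyruvate in fat, measured 9.74 ± 0.21 in lean (SD, n = 5), with a lowest array of 9.41, and 8.98, 7.87, 8.44, 9.13 and 8.86 in rosiglitazone fat, and fell 2.12-fold with no overlap (log2 -1.08, SE 0.22, limma adjusted p = 0.00501). The dicarboxylate carrier gene Slc25a10, of the glyceroneogenesis list and not of the target list, rose 2.46-fold. Fabp3, Cyp4b1 and Slc27a1 were called without the arrays high in Lalba, whereas Cidea (2.05, limma adjusted p = 0.0579), Aqp7 (0.68, adjusted p = 0.304), Slc25a10 (1.08, adjusted p = 0.121) and Pck1 (-1.36, adjusted p = 0.205) were not. G0s2, an inhibitor of the lipase ATGL and likewise not on the target list, had a log2 difference of -1.07 (adjusted p = 0.0516).

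Of 14 brown and beige fat genes 5 rose and 0 fell (Fabp3, Cpt1b, Cidea, Ppara, Ppargc1a). These 5 also work in fatty acid handling outside brown fat, and a part of brown or beige fat cells in their rise was not tested. Ucp1 measured 1.72, 1.57, 1.32, 1.66 and 1.60 in lean and 1.35, 1.48, 1.68, 1.54 and 1.80 in rosiglitazone fat, below the median level of all clusters on every one of these arrays (log2 -0.01, SE 0.19, adjusted p = 0.991). The brown fat genes Dio2, Elovl3 and Zic1 were not called. Of the 14 genes 7 lay below the median level in both groups, as did 5 of 6 measured brown adipocyte markers. Among all clusters with a mean below that level only 0.97% were called, so a missing call says little for these genes.

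**Figure D4:**
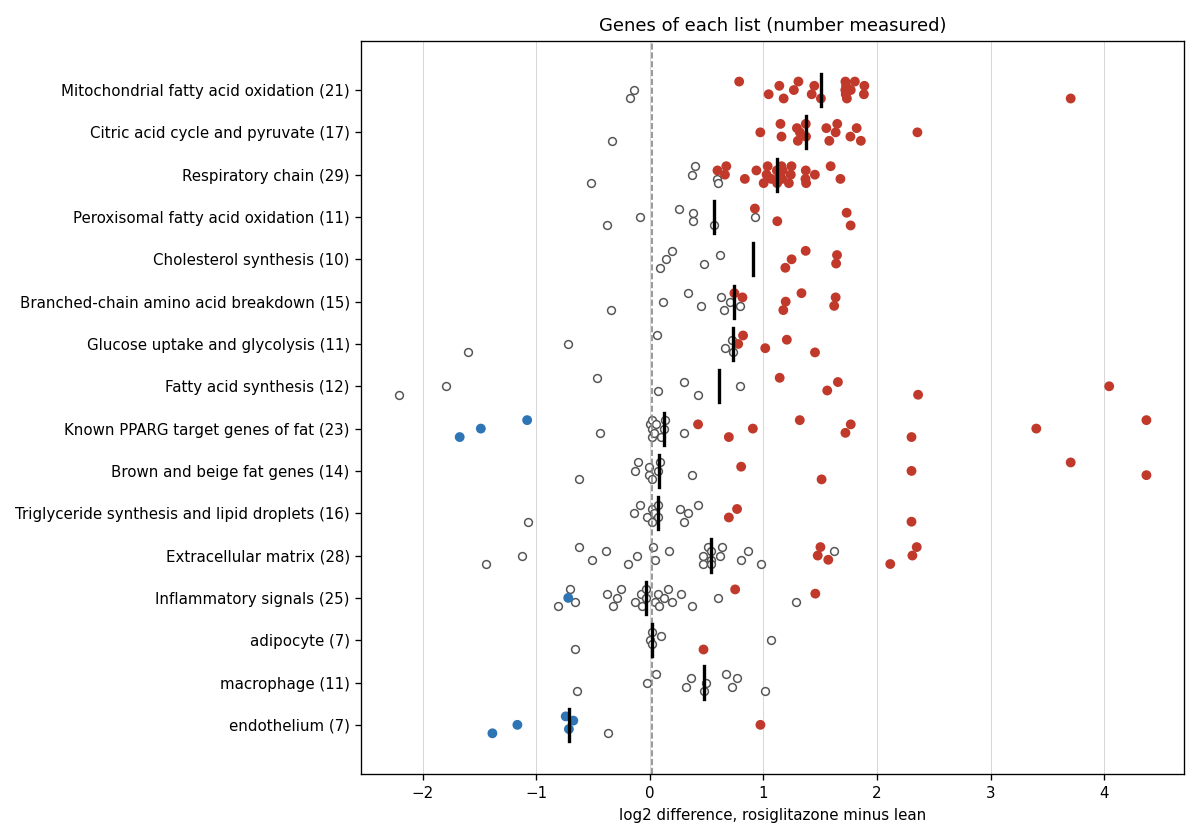
Each point is the log2 difference of a gene, rosiglitazone minus lean, filled where it was called, in 16 lists with the number measured in parentheses. Black bars are list medians and the dashed line is the median of all 14557 genes. The 3 mitochondrial lists lie almost wholly to the right, known PPARG targets spread to both sides, and endothelial markers lie mostly to the left.

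Of 7 measured endothelial markers 5 fell and 1 rose, with a median log2 difference of -0.71 (1.64% of all genes fell and 6.16% rose). Emcn, a sialomucin of capillary and venous endothelium, measured 6.99, 7.46, 7.90, 7.27 and 7.33 in lean and 5.71, 6.28, 5.89, 6.05 and 6.09 in rosiglitazone fat. The groups were separate, and Emcn fell 2.62-fold (log2 -1.39, SE 0.16, limma adjusted p = 1.76e-05), while obese and resveratrol fat measured 7.26 ± 0.22 and 7.42 ± 0.16 (SD, n = 5). Cldn5, a tight junction protein, measured 4.84, 5.55, 4.64, 4.36 and 4.09 in lean and 3.57, 3.62, 4.02, 3.08 and 3.36 in rosiglitazone fat, and fell 2.25-fold with no overlap.

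Tie1, Cdh5 and Tek, receptors and the cadherin of endothelial cells, fell by 0.74, 0.71 and 0.67. Their calls were closer to the threshold. Tie1 was lost without lean 3, rosiglitazone 3 or rosiglitazone 5 (-0.71 to -0.70), Tek without lean 3 or rosiglitazone 5 (-0.58 and -0.65), and Cdh5 without lean 1, lean 3, rosiglitazone 1, rosiglitazone 3 or rosiglitazone 5 (-0.71 to -0.62). Vwf, the clotting factor carrier of endothelium, went the other way, from 3.82, 4.95, 5.12, 4.36 and 4.91 in lean to 5.44, 5.93, 5.21, 5.82 and 5.63 in rosiglitazone fat, a 1.96-fold rise (log2 0.97, SE 0.21, limma adjusted p = 0.00673). Of the 7 markers 3 were called without lean 3, without rosiglitazone 5 or with each array centred on its median, and 1, Cldn5, without the arrays high in Lalba, where the list median was -0.72. In that fit Emcn differed by -1.06 (adjusted p = 0.089), Tek by -0.32 (adjusted p = 0.56) and Vwf by 1.49 (adjusted p = 0.0614).

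Pericyte markers Kcnj8 and Notch3 fell by 0.90 and 0.80 (limma adjusted p = 0.000352 and 0.00815), 2 of 4 measured. Flt4, the lymphatic growth factor receptor, rose 2.38-fold, 1 of 4 lymphatic markers. Over all genes 1.64% fell and 6.16% rose. Among 10 fibroblast and preadipocyte markers Pdgfrb rose 1.91-fold and Cd34, carried by progenitors and endothelium, fell 2.39-fold, from 6.30 ± 0.54 to 5.04 ± 0.29 (SD, n = 5). None of Kcnj8, Notch3, Flt4, Pdgfrb and Cd34 was called without the arrays high in Lalba (limma adjusted p from 0.14 to 0.313), and Flt4 differed by 0.67. Of 7 adipocyte markers 1 was called (0 without any one of lean 3 to 5 or of rosiglitazone 1, 2, 4 and 5), and the mean of the list lay between 9.66 and 10.21 on lean and between 9.95 and 10.29 on rosiglitazone arrays. Of 11 macrophage markers 0 were called in limma (5 at an unadjusted p under 0.05), with a median of 0.48, for example 0.76 for Cd68 (adjusted p = 0.18) and 1.02 for Gpnmb (adjusted p = 0.161). Lean 2 had the highest macrophage mean, 5.89, and without it 4 of the 11 were called, all higher.

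**Figure D5:**
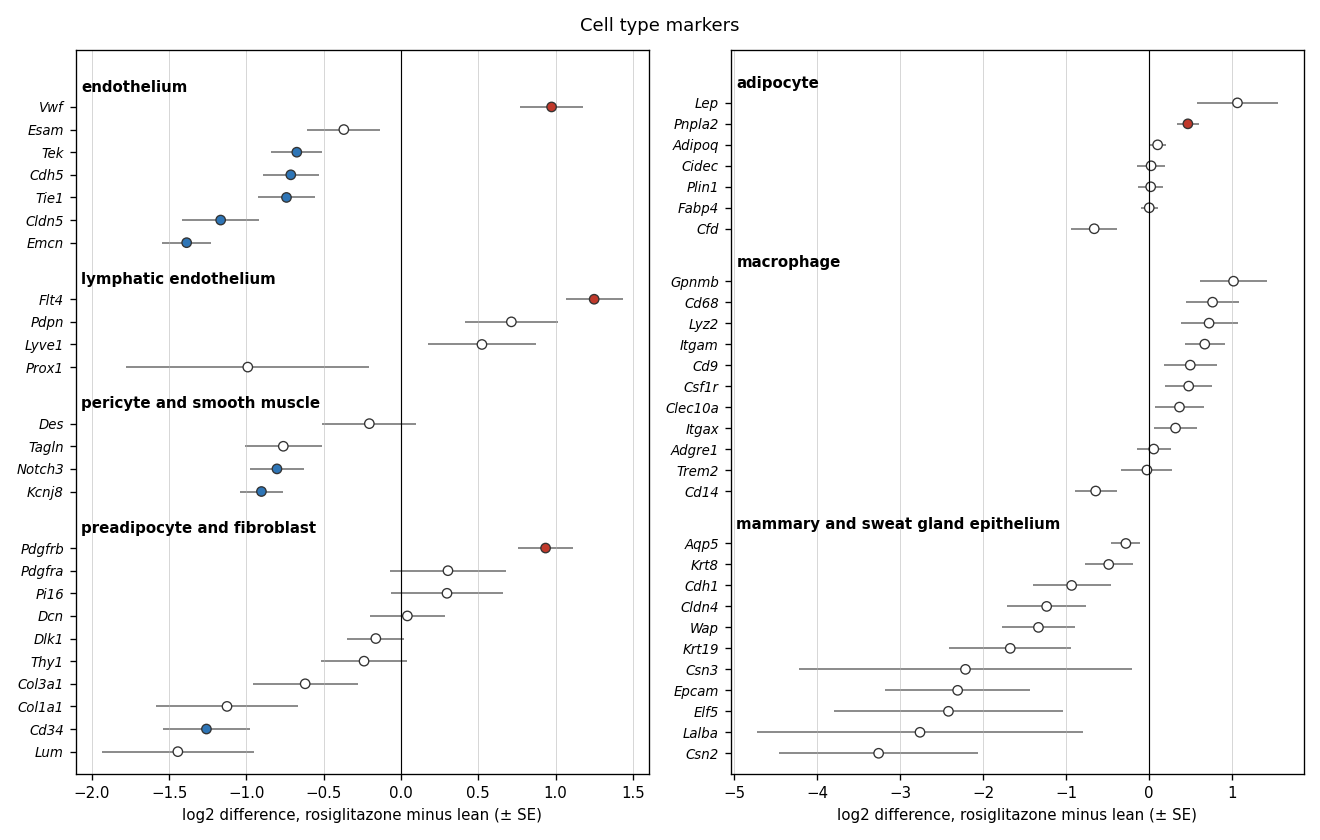
Log2 differences with their SE are plotted for the markers of 7 cell types, filled where called. Endothelial and pericyte markers lie mostly below 0, most adipocyte markers lie near 0 with Lep above and Cfd below, and the mammary markers lie below 0 with wide errors and no filled point.

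In the extracellular matrix list 6 of 28 measured genes rose and 0 fell (median log2 0.54). The crosslinking oxidases Lox and Loxl1 rose 4.34-fold and 4.97-fold, and the matricellular genes Thbs2 and Postn 5.10-fold and 2.79-fold. Lox measured 4.54, 7.07, 6.80, 5.40 and 6.03 in lean and 7.95, 8.30, 7.83, 7.85 and 8.51 in rosiglitazone fat, without overlap. Ccn2, a growth factor-like matrix protein, and the proteoglycan gene Bgn rose 2.83-fold and 2.97-fold. The fibrillar collagen gene Col1a1 was not called (log2 -1.13, SE 0.46, adjusted p = 0.169), nor was Lum (-1.44, adjusted p = 0.0967). Of the 28 genes 0 were called without the arrays high in Lalba and the median was 0.13 (for Lox, Thbs2 and Bgn, log2 2.27, 1.65 and 0.92, limma adjusted p = 0.15, 0.28 and 0.511).

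Among 14 adipokines and secreted factors 2 rose and 1 fell, where 6.16% of all genes rose and 1.64% fell. With single arrays left out, 1 to 4 rose and 0 to 2 fell. Angptl8, an inhibitor of lipoprotein lipase, measured 4.84, 4.82, 4.26, 3.49 and 4.31 in lean and 8.33, 5.50, 5.74, 6.42 and 5.55 in rosiglitazone fat, with rosiglitazone 1 the highest, and rose 3.90-fold (limma adjusted p = 0.00671). It differed by 1.13 (adjusted p = 0.24) without the arrays high in Lalba, and Ccl2, Aldh1a1 and Cyp1b1, below, were not called either (adjusted p from 0.246 to 0.31). Lep had a log2 difference of 1.06 that was not called (adjusted p = 0.23), and lean 3 was its lowest array at 6.00. Of 25 inflammatory genes 2 rose and 1 fell (median -0.04), with 0 to 3 rising and 0 to 2 falling when single arrays were left out. Ccl2, the monocyte attractant, was 2.75-fold higher (log2 1.46, adjusted p = 0.0378) with overlapping groups, and its call was lost without lean 1, lean 4, lean 5, rosiglitazone 3, rosiglitazone 4 or rosiglitazone 5 (1.08 to 1.48). Among 18 interferon response genes, 16 cell cycle genes and 11 clock genes, 0 were called in limma (6, 0 and 3 at an unadjusted p under 0.05). Leaving out lean 3 or rosiglitazone 3 gave 1 call among the interferon genes and 2 or 1 among the clock genes, leaving out lean 2 gave 1 interferon gene and leaving out lean 1 gave 1 clock gene. Of 18 drug and retinoid genes 3 rose and 1 fell, including Aldh1a1, a retinaldehyde dehydrogenase (log2 1.49 higher, from a lean mean of 2.25 below the median level), and Cyp1b1 (1.82-fold lower).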

How the data were processed

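RNA of frozen subcutaneous tissue was hybridised to Rat Gene 2.1 ST arrays, per the labels' protocols. The authors deposited log2 values made with RMA, per the submitters' processing notes. Its settings, and the strip or scan of each array, are not stated in those notes or the labels, and no batch was tested. The values (36685 clusters, 20 arrays, 0 missing) were used as deposited. The platform's annotation gave 14824 clusters 1 symbol and 829 several, and 21032 were unnamed. The cluster with the higher mean stood for a gene. One limma 3.58.1 model (lmFit, eBayes; R 4.3.3) with 4 group terms was fitted to all 20 arrays, with Benjamini-Hochberg adjustment over all clusters, and the code was tested on simulated data. Array number limits precision: the median SE of a log2 difference was 0.19 (95% interval 0.39 to either side). Named genes are the 15 largest increases and decreases among called, non-overlapping genes above the median level of 2.55, and up to 4 members of each of 44 lists with the largest differences. Members and lists were chosen with earlier results of these data known. Alb and other list members were named after their values were seen. Alternatives were quantile normalisation, median centring, filters on dim clusters, a trended robust prior, array weights, the array SD as covariate, a fit of the 2 groups alone, the replicate number as a block, and each array left out. Leaving out arrays with Lalba above 3, and the mammary marker mean as covariate, were chosen after seeing the data. Figures used matplotlib 3.10.9 in Python 3.11.15.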

Additional observations from a re-analysis of the deposited data

Results flagged for a closer look

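Within the 5 arrays of a group, 1 array stood far from the other 4 in 13 of 244 combinations of group and measure, where chance gives about 1 in 20 such combinations (12.2 here). Lean 2 was the highest lean array for Elovl6 (5.90, the others 3.66 to 4.31) and Idh3b (7.65, the others 7.18 to 7.21) and the lowest for Ppargc1a (1.91) and Alb (5.05, the others 7.17 to 7.84). Lean 1 was the lowest lean array for Pdk4 (6.27, the others 8.38 to 8.70). Rosiglitazone 4 was the highest of its group for Cyp4b1 (9.26) and the lowest for Idh2 (5.58). Rosiglitazone 3 was the lowest for Nrip1 (6.15) and Kcnj8 (3.65, the others 4.01 to 4.04). Rosiglitazone 2 was the highest for Acadsb (8.86) and the lowest for Thbs2 (6.47), rosiglitazone 1 the lowest for G0s2 (5.31), and rosiglitazone 5 the lowest for Pdhb (7.83).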

How the results depend on the processing

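The number of called clusters, 1974, was 834 at an adjusted p under 0.01, 3968 with array weights, 1124 with the mammary marker mean as covariate, 208 without the arrays with Lalba above 3 (204 of them at least 2-fold, against 779), and 1218 to 2713 with single arrays left out (617 to 1183 at least 2-fold). Of the 208, 159 higher and 34 lower clusters were among the 1349 and 625. The share called higher, 68.3%, was 80.5% after median centring. Fatty acid oxidation and citric acid cycle counts stayed within 1.5 times under every alternative. The respiratory chain count was 9 of 29 without the arrays high in Lalba (22 to 25 with single arrays left out). The endothelial count was 3 with median centring, 1 without the arrays high in Lalba, and 3 to 6 with single arrays left out. The arrays' own medians were lower with rosiglitazone (-0.10, exact permutation p = 0.0238), but 0.0427 higher over clusters above the median level (exact p = 0.254), and single arrays left out gave -0.119 to -0.074. The arrays' SD was 0.0551 higher (exact p = 0.0317), or 0.0386 to 0.0692 with single arrays left out, with p up to 0.0635. None of the 101 named called genes changed sign, and 40 kept their call throughout. Genes without a call that changed sign were Cpt1a (0.15 with the mammary covariate, 0.43 without the arrays high in Lalba, -0.38 to 0.053 with single arrays left out), Eci1 (0.27, 0.28, -0.39 to 0.026), Fabp4 (-0.078, -0.12, -0.042 to 0.051, and -0.022 with the SD covariate), Ucp1 (0.17 with that covariate, 0.034 with array weights, 0.094 with median centring, 0.066 with quantile normalisation, -0.069 to 0.048 with single arrays left out), Lalba and Csn3 (1.10 and 1.64 with the mammary covariate) and Csn2 (0.16 without the arrays high in Lalba). The causes were not tested. Same-numbered lean and rosiglitazone arrays did not deviate together (correlations -0.07 to 0.06), and the number as a replicate block gave 1790 calls. The fit without arrays high in Lalba has 2 arrays against 2.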

Other observations

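Alb, the serum albumin gene, was among the changes outside the lists and was chosen after its values were seen. It measured 7.84, 5.05, 7.59, 7.27 and 7.17 on the lean arrays and 9.74, 10.08, 9.46, 9.09 and 9.60 on the rosiglitazone arrays, with no overlap (log2 2.61, SE 0.40, limma adjusted p = 0.000375), and 3.14 without the arrays high in Lalba (adjusted p = 0.0951). In obese and resveratrol fat it measured 4.26 ± 0.70 and 4.40 ± 0.15 (SD, n = 5), below lean (log2 -2.73, adjusted p = 0.0115, and -2.59, adjusted p = 0.0391).

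Clusters not named in the annotation held 781 of the 1974 calls, 421 higher and 360 lower with rosiglitazone. Of the 77 clusters that fell at least 4-fold, 70 were among them. The median level of these 360 lower clusters was 5.41, 4.17, 4.87, 4.92 and 4.69 on lean arrays 1 to 5 and 3.17 to 3.47 on the rosiglitazone arrays, and lean 1 was the highest of the lean arrays. The median of 1118 olfactory receptor clusters, a set chosen after seeing the data, was also highest on lean 1 within its group (1.62, the other lean arrays from 1.19), and 1.16 to 1.29 on the rosiglitazone arrays. Its part in the lower clusters was not tested.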
